A study of Mus musculus with 4 samples.

Results

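Sustentacular cells are the supporting cells of the olfactory epithelium. Here they were selected on measured UMIs of 4 genes, as the barcodes with at least 30 UMIs of Cyp2g1, at most 15 of Omp, at most 4 of Krt5 and at most 1 of Sprr1a, among barcodes with at least 500 detected genes and at most 10% of UMIs in mitochondrial genes. Each RNA molecule caught in a droplet carries its own tag, and UMIs are the count of such tags. The rule found 5902 barcodes of the 39715 that passed both quality limits. Female 1 held 1462 of them, female 2 held 1394, male 1 held 1482 and male 2 held 1564. All libraries were droplet captures read from the 5′ end of transcripts, and the tissue was main olfactory epithelium. The mice were wild type, on the C57BL/6J background and 3 months old, with 2 female and 2 male libraries, and no treatment is labelled. Nothing in the labels says how many animals went into a library, so a spread between libraries may be partly technical. The 4 libraries shared 136 to 172 barcode sequences per pair, of which 1 to 6 were sustentacular in both.

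Sustentacular cells span the epithelium from the basal lamina to the nasal surface and wrap the dendrites of the sensory neurons. They are known for metabolising inhaled chemicals: phase I enzymes such as cytochromes P450 oxidise a compound, and phase II enzymes such as glutathione, glucuronosyl and sulfo transferases conjugate the product. They also act as glia-like phagocytes of dead neurons and move ions and water at the mucosal surface.

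The class has 4 given marker genes, Cyp2g1, Gstm1, Sec14l3 and Aldh1a7. Cyp2g1 (chr7:26808892-26821205) is an olfactory cytochrome P450 and chose the members, so its level is a description only. Levels are given as CPM, the UMIs of a gene per 1000000 UMIs of the class. Cyp2g1 stood at 16609 CPM (female 1), 14520 (female 2), 17130 (male 1) and 16167 (male 2), against a mean of 2076 ± 214 (SD, n = 4 libraries) in all other passing barcodes. Sec14l3 (chr11:4064841-4077736), a lipid-transfer protein of the SEC14 family, stood at 11464 ± 333 CPM against 1939 in the other barcodes. Gstm1 (chr3:108012255-108017973), a glutathione S-transferase, stood at 10647 ± 498 CPM against 2196. Aldh1a7 (chr19:20692953-20727562), an aldehyde dehydrogenase, stood at 168 ± 11.5 CPM against 28.2. In all 4 libraries each of these genes was at least 4-fold higher in sustentacular cells. The other barcodes still held 2575 with at least 30 Cyp2g1 UMIs that failed another limit, 2197 of them over the Omp limit.

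The sequence before the start site of 3 of these markers is shown because these genes mark the class. Sequences are from RefSeq (GRCm38.p6), 5′ to 3′ on the gene's strand, up to 250 bases before the start and outside the annotated gene. Capitals mark TATAAA or CCAAT on either strand. Sec14l3 lies on the plus strand and its window is chr11:4064603-4064840; Gstm1 and Aldh1a7 lie on the minus strand, with windows chr3:108017974-108018223 and chr19:20727563-20727806.
Sec14l3: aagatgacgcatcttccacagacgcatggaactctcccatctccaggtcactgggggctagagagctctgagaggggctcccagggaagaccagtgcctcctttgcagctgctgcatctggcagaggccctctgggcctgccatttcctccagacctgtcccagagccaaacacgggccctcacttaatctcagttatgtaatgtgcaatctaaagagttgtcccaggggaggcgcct
Gstm1: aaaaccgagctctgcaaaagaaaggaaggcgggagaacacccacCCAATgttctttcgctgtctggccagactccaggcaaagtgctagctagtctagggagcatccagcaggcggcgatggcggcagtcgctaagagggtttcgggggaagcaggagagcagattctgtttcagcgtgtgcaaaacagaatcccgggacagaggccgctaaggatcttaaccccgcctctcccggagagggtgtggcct
Aldh1a7: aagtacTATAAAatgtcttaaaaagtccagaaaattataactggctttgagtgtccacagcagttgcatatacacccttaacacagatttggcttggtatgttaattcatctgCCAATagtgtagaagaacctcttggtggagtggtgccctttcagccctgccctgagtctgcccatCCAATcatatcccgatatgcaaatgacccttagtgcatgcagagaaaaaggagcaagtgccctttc
Sec14l3 held neither motif in this window, Gstm1 held 1 CCAAT, and Aldh1a7 held TATAAA and CCAAT. The counts that follow used the full 250 bases before any start of a gene, also where these lie inside the annotated gene. Among 27025 RefSeq genes, TATAAA was present in the 250 bases before a start in 14.3% and CCAAT in 37.5%. Among the 10 most abundant genes of the class, 8 had an entry, of which 4 held TATAAA (Cyp2a5, Fth1, Gstm1 from a second start, and Ugt2a1) and 3 held CCAAT. Among the 15 genes with the largest ratios, 12 had an entry, of which 2 held TATAAA (Cyp1a2 and Muc2) and 4 held CCAAT. The TATAAA of Gstm1 and that of Cyp1a2 lay inside the annotated gene.

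The label was set beside markers of other cell types, leaving out Omp and Krt5, which the rule limits. The rule keeps barcodes rich in Omp or Krt5 out of the members and leaves them in the comparison. Among them are 17803 with more than 15 Omp UMIs, fewer than 30 of Cyp2g1 and at most 4 of Krt5. Lower neuron and basal markers thus follow in part from the selection and are a description, not a check of the label. The other 7 markers of mature neurons were all at least 4-fold lower than in the other barcodes, and their summed level was 514 to 608 CPM against 12027 to 13534. Of the 3 other markers of horizontal basal cells, Krt14 (1.36 CPM against 83.6) and Trp63 (0.30 against 21.5) were at least 4-fold lower in 4 of 4 libraries, and Krt15 (2.08 against 14.9) was not. Of the 4 immune markers, 1 passed 4-fold downwards, and their sum was 174 CPM (49.8 to 277 by library) against 518. Among them the leukocyte gene Ptprc stood at 1.13 CPM against 7.14. The 3 markers of immature neurons summed to 325 CPM against 996, and the 4 of globose basal cells to 35.4 against 131. None of these passed 4-fold in all libraries. The tuft microvillar markers Il25, Trpm5 and Chat summed to 18 CPM against 14.1, and the ionocyte-like markers Cftr, Foxi1 and Ascl3 to 13.7 against 14.8, so neither list was clearly lower in sustentacular cells. The 6 gland and secretory markers summed to 6547 CPM against 2814, with a median log2 ratio of 0.89, and none passed 4-fold in either direction. Scgb1c1 made up most of that sum, at 6334 CPM against 2662. Sox9 stood at 47.8 ± 11 CPM against 27.5. Barcodes with more than 4 Krt5 UMIs, fewer than 30 of Cyp2g1 and at most 15 of Omp (1305, here Krt5-high) serve as a further comparison. The given marker Gstm1 was also high there, at 5158 ± 322 CPM against 10647 in sustentacular cells. Sec14l3 was not, at 199 ± 43.7 against 11464. Cyp2f2 and Ugt2a1 stood at 2685 and 1430 CPM there, against 5695 and 6793.

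One subset goes against the label. Of the 5902 members, 418 held Rgs5 at 0.2% or more of their UMIs: 118 (8.07%) and 121 (8.68%) of the members of female 1 and female 2, and 88 (5.94%) and 91 (5.82%) of those of male 1 and male 2. With every cell thinned to 5000 UMIs, cells with at least 20 Rgs5 UMIs carried Sec14l3 at 604 ± 183 CPM and Aldh1a7 at 21.9 ± 4.57, against 12541 ± 382 and 186 ± 10.4 in cells with at most 4. They carried Sox9, a transcription factor and gland marker, at 561 ± 20.8 CPM against 7.41. The subset is called Rgs5-rich here and given no cell type name, and the main counts, the sex comparison, the Sult1c1 split and the Cyp2g1 bands are also given without it, an alternative chosen after the values were seen.

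Median depth was 13814 to 14302 UMIs per sustentacular barcode by library, against 7988 to 8885 in the other barcodes, and the median mitochondrial share was 3.33% to 3.67% against 1.77% to 2.01%. Just inside the Cyp2g1 limit lay 294 members with 30 to 39 UMIs (median depth 10666), and just outside lay 338 barcodes with 20 to 29 (median depth 9628). At the Omp limit, 118 members had 11 to 15 UMIs and 69 barcodes with 16 to 20 fell outside. A doublet score marked 4.22% to 6.84% of the members, against 53.1% to 63.7% of the barcodes that were Cyp2g1-high but lost for Omp.

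The most abundant RNAs of the class included the xenobiotic enzymes Cyp2a5, Cyp2g1, Cbr2, Gstm1, Ugt2a1 and Cyp2f2, beside Sec14l3, Prdx6, Scgb1c1 and Fth1. Of 16523 measured genes (at least 50 UMIs in members and other barcodes together), 356 (2.15%) were at least 4-fold higher than in the other barcodes in 4 of 4 libraries, and 1992 (12.1%) at least 4-fold lower. Since the rule chose cells by their expression, these counts are descriptions and no test was made. Without the Rgs5-rich cells the count was 359 higher. When barcodes with 30 or more Cyp2g1 UMIs were taken out of the comparison it was 784, and against barcodes with more than 15 Omp UMIs and fewer than 30 of Cyp2g1 (Omp-high, 17803) it was 1895. With at least 60 Cyp2g1 UMIs required of members it was 264.

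**Figure D1:**
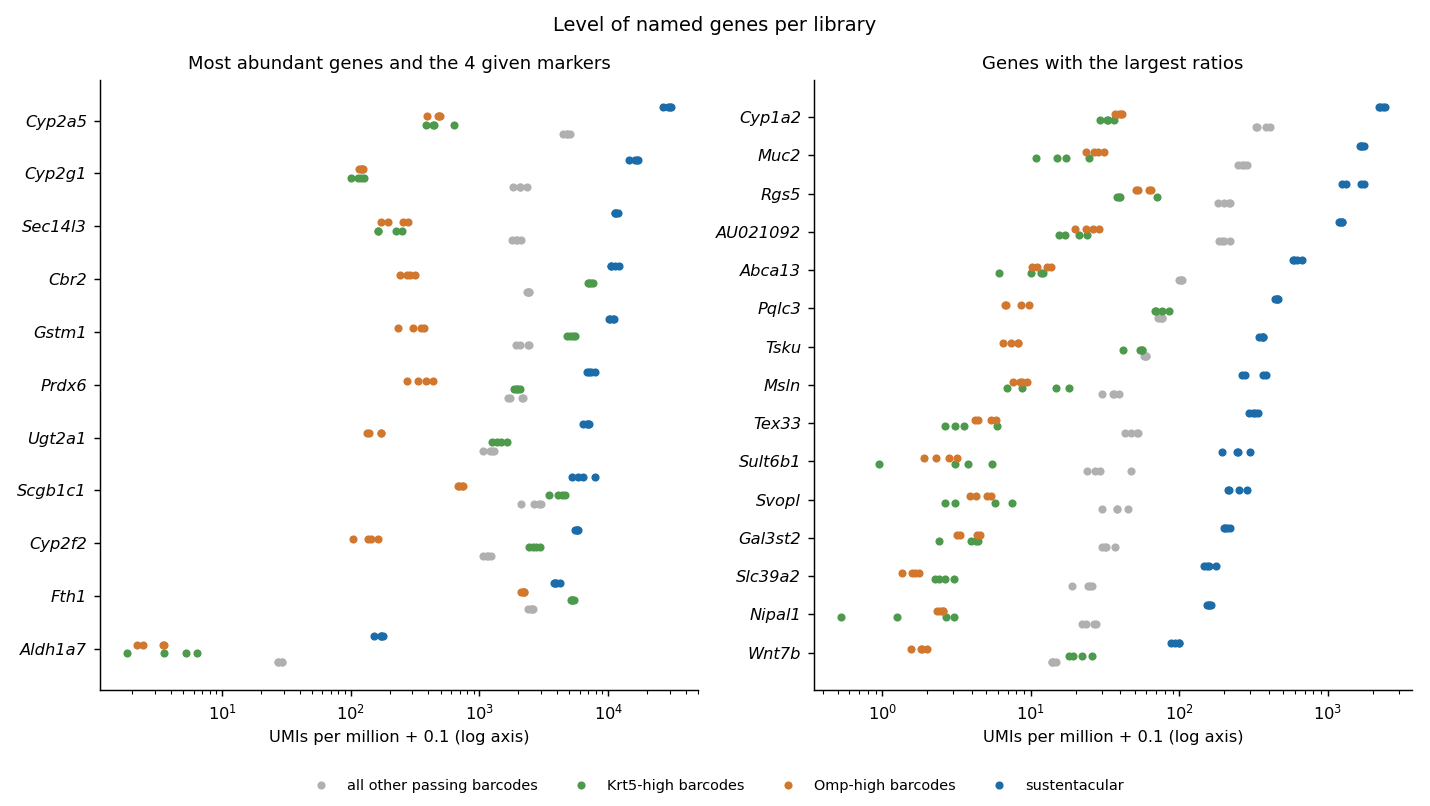
Level of the most abundant genes and the 4 given markers (left) and of the 15 genes with the largest ratios (right) in CPM plus 0.1 on a log axis. Each point is 1 of the 4 libraries, for sustentacular cells, all other passing barcodes, Omp-high and Krt5-high barcodes. Sustentacular points stand to the right of all others except for Fth1, where Krt5-high barcodes are higher.

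Among the phase I genes, 18 of 56 measured were at least 4-fold higher and 5 lower, against 2.15% and 12.1% of all measured genes. Their median log2 ratio was 1.6 against -0.43 over all measured genes. Together they made up 8.46% of the UMIs of sustentacular cells. Cyp2a5 (chr7:26835305-26843548), a P450 that oxidises coumarin and nicotine, was the most abundant nuclear gene outside ribosomal proteins. It stood at 29033 CPM (female 1), 26789 (female 2), 30095 (male 1) and 30799 (male 2). Every library was far above the other barcodes, whose mean was 4780 CPM, with ratios of 5.60 to 6.57. Its near-identical relative Cyp2a4, on the same chromosome, had 10.7 CPM, and reads could have been split between the copies. Cbr2, a carbonyl reductase, reached 11108 ± 728 CPM but was also high in Krt5-high barcodes at 7286 CPM. Cyp2f2, which activates naphthalene, stood at 5695 ± 118 CPM. Aldh2 stood at 3715 ± 24.4 and Cyp1a2, known from the liver for caffeine metabolism, at 2310 ± 105. Por, the reductase that passes electrons to microsomal P450s, stood at 2297 ± 42.7 CPM, and Cyb5a, which also donates electrons to them, at 2491 ± 60.2. Both were over 4-fold higher in all 4 libraries. Adh7 and Aldh3a1 were lower, at 2.19 and 5.73 CPM, against 360 and 758 CPM in Krt5-high barcodes.

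Phase II genes were higher for 10 of 41 measured and lower for 2, beside the same 2.15% and 12.1% over all measured genes. Their median log2 ratio was 1.72 and they made up 2.85% of all UMIs. After Gstm1 came Ugt2a1, an olfactory UDP-glucuronosyltransferase, at 6793 ± 309 CPM, 5.22 to 5.95 times the other barcodes. Ugt2a2 shares exons with it and stood at 726 ± 54.9. Tst, the thiosulfate sulfurtransferase that detoxifies cyanide, stood at 2388 ± 39.9, Gstm2 at 2141 ± 75.2 and Mgst1 at 1595 ± 48.9. Sult1c1, a sulfotransferase, stood at 1364 CPM (female 1), 1487 (female 2), 1338 (male 1) and 1962 (male 2). Male 2 was the highest, and the other 3 libraries lay close together. The Gstm genes are close copies, so their counts are uncertain where reads fit more than 1. In the glutathione and redox list only Ggt1, a gamma-glutamyltransferase, passed 4-fold upwards of 26 measured genes, at 13.1 CPM, and only Gpx3, a secreted glutathione peroxidase, passed downwards, at 1.41 CPM against 13.2. Prdx6, a peroxiredoxin, was far more abundant at 7335 ± 444 CPM, but its ratio was 3.37 to 4.18.

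**Figure D2:**
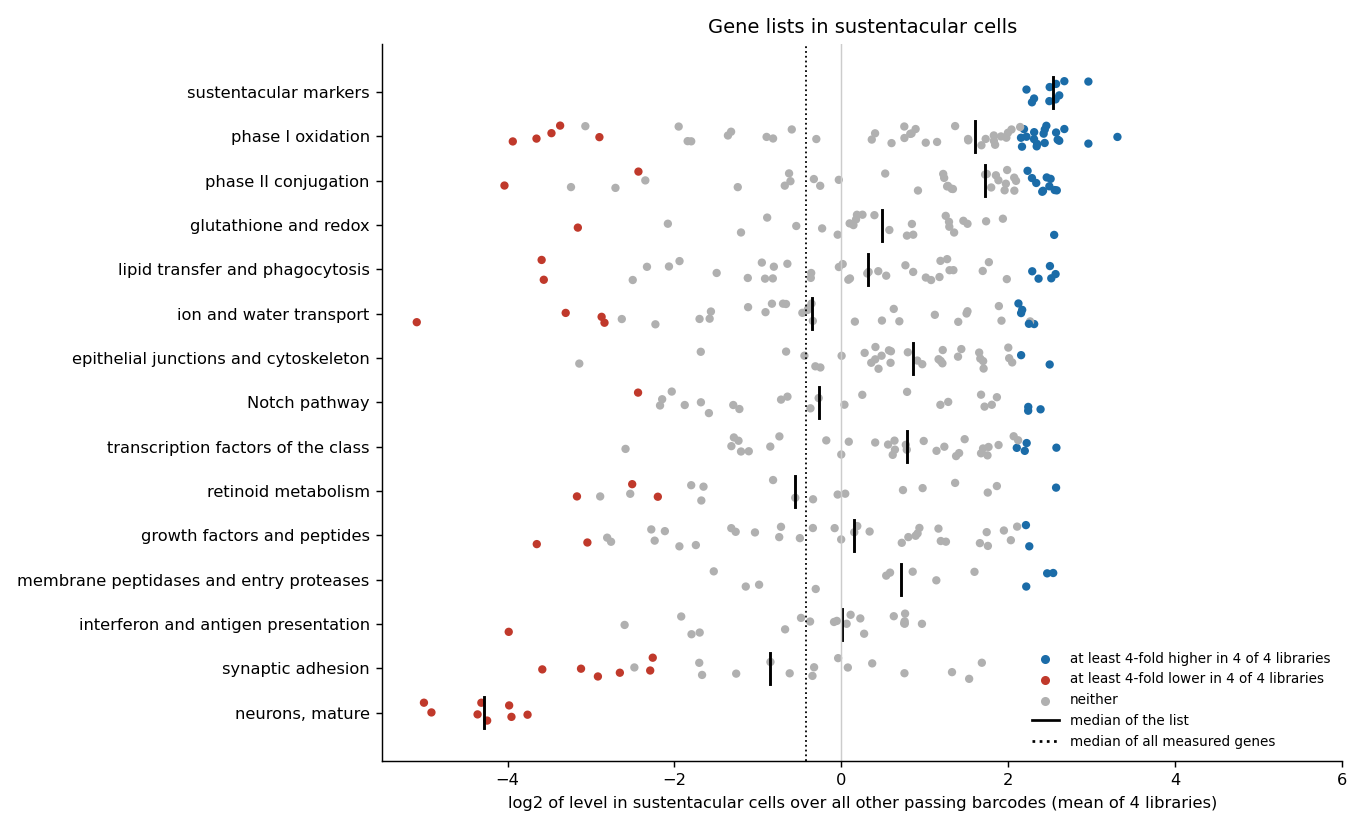
Log2 ratio of each gene in sustentacular cells over all other passing barcodes (mean of 4 libraries), by list. Points are genes, coloured by whether the ratio passed 4-fold in 4 of 4 libraries. Black bars are list medians and the dotted line is the median over all measured genes. The 10 sustentacular markers all passed upwards and the 8 mature neuron markers all passed downwards; Cyp2g1 and Omp are among them and were set by the rule.

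Beyond metabolism, genes of lipid handling and engulfment passed for 5 of 40 measured. Besides Sec14l3 these were Sec14l2 at 1234 ± 27.1 CPM, the phagocytic receptor kinase Tyro3 at 536 ± 14.4, the lipoprotein receptor Scarb1 at 204 ± 7.64 and the endocytic receptor Lrp2 at 187 ± 6.44. The related kinase Axl stood at 0.40 CPM and Mfge8, which bridges dying cells to phagocytes, at 7.95. Both were lower than in the other barcodes. Of 35 genes of ion and water transport, 5 passed upwards and 4 downwards, where 2.15% and 12.1% of all measured genes did. The 4 of 35 lower is near the share over all genes. The median log2 ratio was -0.36, also near that of all measured genes. The 5 higher were the water channels Aqp3 at 2587 ± 91.3, Aqp5 at 850 ± 49.4 and Aqp4 at 531 ± 8.58 CPM, the calcium-release channel Itpr2 at 116 ± 2.94 and the ATP receptor P2ry2 at 12.8 ± 0.94. Aqp3 was higher still in Krt5-high barcodes, at 4187 CPM.

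The list counts that follow stand beside shares of 2.15% passing upwards and 12.1% downwards over all measured genes. In the Notch pathway, 3 of 25 genes passed upwards. Hey1, a Notch target repressor, stood at 690 CPM (female 1), 733 (female 2), 705 (male 1) and 672 (male 2), against a mean of 149 in the other barcodes. No sustentacular library came near the other barcodes. The receptors Notch2 and Notch3 stood at 114 ± 4.50 and 85.0 ± 3.67 CPM, and the ligand Jag2 was lower at 6.52. Notch3 was at 2.07 CPM in Krt5-high barcodes, while Hes1, another Notch target, was higher there (252 CPM) than in sustentacular cells (173). Among transcription factors Id1, Elf5, Otx2 and Sox21 passed of 35 measured. Elf5, an ETS factor of secretory epithelia, stood at 463 ± 8.49 CPM, 5.60 to 6.31 times the other barcodes. Of membrane peptidases, Tmprss2 stood at 152 ± 6.96 CPM, Anpep at 56.1 ± 7.05 and Dpp4 at 46.7 ± 3.26, and these 3 of 12 passed upwards. Of 37 growth factors and peptides, 2 passed upwards and 2 downwards: Tgfb2 and Tgfa stood at 124 ± 9.55 and 62.9 ± 1.77 CPM, and the chemokine Cxcl14 and the activin antagonist Fst at 0.46 and 0.15. Epithelial junction genes passed for 2 of 34, Ermn and Nectin3; the keratins Krt18 and Krt8 stood at 2658 and 1400 CPM with ratios near 4. In the synaptic adhesion list none of 21 passed upwards and 6 passed downwards. Dcn, a matrix proteoglycan used here as a fibroblast marker, stood at 1005 ± 80.5 CPM, while the other fibroblast marker, Col1a1, stood at 3.81.

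The 15 genes with the largest ratios were Msln, Sult6b1, Wnt7b, Slc39a2, Gal3st2, Tex33, Cyp1a2, Tsku, Muc2, Pqlc3, Nipal1, Rgs5, Abca13, AU021092 and Svopl. Muc2 encodes a gel-forming mucin and stood at 1691 ± 46.2 CPM, Slc39a2 a zinc transporter at 159 ± 13.1 and Wnt7b a Wnt ligand at 94.8 ± 5.53. Without the Rgs5-rich cells 2 of these ratios changed sign. The log2 ratio of Msln went from 3.17 to -2.67 and that of Rgs5 turned to -1.47, while the other 13 stayed between 2.16 and 3.08.

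Members also differed among themselves. In 5644 members thinned to 5000 UMIs, the variance over the mean had a median of 1.13 across 1681 genes, and the 12 most variable genes were Bpifa1, Rgs5, Wfdc18, Vmo1, Scgb1c1, Cyp2a5, Sult1c1, Gstm1, Cyp2g1, Msln, Lars2 and Mt1. Correlations across cells of 1 library, on log counts, share that library's depth and free RNA and are given without a test. Rgs5 and Msln had r of 0.89 to 0.93 in the 4 libraries, Wfdc18 and Msln 0.81 to 0.85, and Sult1c1 and Gstm1 -0.81 to -0.75.

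**Figure D3:**
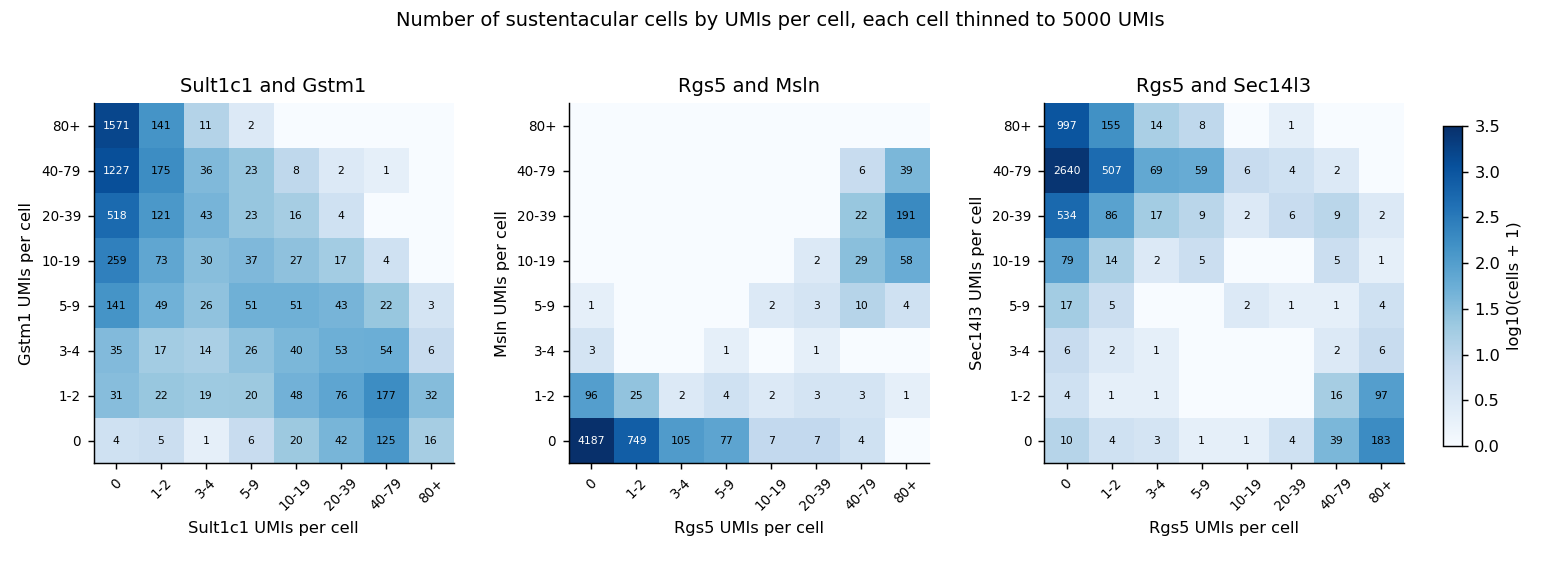
Number of sustentacular cells by UMIs per cell, each cell thinned to 5000 UMIs, summed over 4 libraries, for Sult1c1 and Gstm1, Rgs5 and Msln, and Rgs5 and Sec14l3. Both axes show UMI ranges, and colour is log10 of cells plus 1. Cells high in Sult1c1 are mostly low in Gstm1, and cells high in Rgs5 carry Msln and little Sec14l3.

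The Rgs5-rich cells were distinct in many genes. Rgs5 (chr1:169655501-169695813), a regulator of G-protein signalling usually known from pericytes, was at 0 in 73.2% to 78.3% of thinned members. Cells with at least 20 UMIs numbered 106 (female 1), 112 (female 2), 83 (male 1) and 82 (male 2), or 7.60% (95% Wilson interval 6.33% to 9.11%), 8.35% (6.99% to 9.95%), 5.83% (4.73% to 7.17%) and 5.52% (4.47% to 6.80%). Both female shares were above both male shares. Only 12 to 29 cells per library held 5 to 19 UMIs. Rgs5 itself stood at 21778 ± 1076 CPM in the high cells and 50 ± 6.77 in cells with at most 4 UMIs. This cut was set after the values were seen, so no test is given.

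The sequence before the Rgs5 start, on the plus strand at chr1:169655251-169655500, is shown because this gene marks the subset; capitals mark CCAAT on the opposite strand.
Rgs5: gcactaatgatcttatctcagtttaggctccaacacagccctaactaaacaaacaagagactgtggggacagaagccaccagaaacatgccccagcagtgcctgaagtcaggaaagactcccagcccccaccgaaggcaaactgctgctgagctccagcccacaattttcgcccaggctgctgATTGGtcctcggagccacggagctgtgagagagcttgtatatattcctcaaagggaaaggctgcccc

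Of 1431 genes at 100 CPM or more in the Rgs5-high cells, 99 were at least 4-fold higher than in Rgs5-low cells in 4 of 4 libraries, and of 1695 at that level in the low cells, 112 were lower. The 99 include Rgs5 itself, which set the split. Msln, the surface protein mesothelin, stood at 4998 ± 312 CPM against 5.54 ± 1.48. Wfdc18, a secreted whey acidic protein, stood at 8918 ± 792 against 32.8 ± 5.68, and Ltf, the iron-binding lactoferrin, at 1300 ± 223 against 7.92 ± 2.13. The chemokines Cxcl5 and Cxcl17 stood at 440 ± 69.3 and 437 ± 61.2 CPM against 0.54 and 3.40. Besides Sox9, the transcription factors Sox10 at 390 ± 57.8 and Gata6 at 228 ± 15.4 stood against 1.67 and 1.17. Scgb1c1, a secretoglobin, was at 24194 ± 2968 against 5015 ± 703, Aqp5 at 2079 ± 191 against 773 ± 46.8, and the chloride channel Cftr at 56.7 ± 12.4 against 4.75. Among other gland markers, Muc5b (65.2 ± 39.2 against 26.7 ± 14.7), Gpx6 (183 ± 282 against 84 ± 18.4) and Bpifb9b (2.28 ± 3.46 against 15.7 ± 24.8) overlapped across libraries. Their mean log2 ratios of high over low cells were 1.18 (-1.44 to 2.82 by library), -1.12 (-4.21 to 2.85) and -3.15 (-5.92 to 1.30).

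Other sustentacular markers were only partly retained in these cells. Cbr2 stood at 823 ± 165 against 12217 ± 699 CPM, Gstm1 at 1773 ± 222 against 12235 ± 542, and Cyp2b10 at 6.09 against 192. Cyp2g1 was 1.74 to 2.02 times lower, at 9220 ± 740 against 16814 ± 1106, and the rule itself asks for at least 30 UMIs of it. Cyp1a2 stood at 1958 ± 177 against 2387 ± 108 and Ermn at 365 ± 37.0 against 518 ± 13.3. Median depth was similar (14254 to 15158 against 14013 to 14538 UMIs), the median mitochondrial share was 5.17% to 5.37% against 3.23% to 3.60%, and Omp was no higher (115 against 171 CPM). A high doublet score marked 10.4% (female 1), 7.14% (female 2), 9.64% (male 1) and 3.66% (male 2) of the Rgs5-high cells. In the Rgs5-low cells these shares were 6.90%, 5.32%, 4.57% and 4.51%. The part of the mitochondrial share or of doublets in these differences was not tested.

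A second axis ran between Sult1c1 and Gstm1. Sult1c1 (chr17:53961615-53990674) was at 0 UMIs in 63.0% of thinned cells of male 2 and in 67.9% to 69.6% in the other libraries. At least 10 UMIs were found in 14.6% (12.8% to 16.5%), 14.3% (12.5% to 16.3%), 13.9% (12.2% to 15.8%) and 19.8% (17.8% to 21.9%). Male 2 had the highest share and the other 3 intervals overlapped each other. Of the Sult1c1-high cells, 67.5% to 83.3% had fewer than 5 Gstm1 UMIs, against 1.27% to 2.20% of the cells without Sult1c1. The cut was again set after the values were seen. Rgs5-high cells, which carried Gstm1 at 1773 ± 222 CPM against 12235 ± 542 in Rgs5-low cells, were 9.18% to 15.8% of the Sult1c1-high cells and 3.03% to 4.94% of the cells without Sult1c1. With the Rgs5-rich cells left out, 73.7% to 84.9% of Sult1c1-high cells had fewer than 5 Gstm1 UMIs, against 0.88% to 1.55% of the cells without Sult1c1.

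The sequence before the Sult1c1 start, on the minus strand at chr17:53990675-53990881, is shown because it is the gene that runs against Gstm1, whose sequence stands above; capitals mark TATAAA.
Sult1c1: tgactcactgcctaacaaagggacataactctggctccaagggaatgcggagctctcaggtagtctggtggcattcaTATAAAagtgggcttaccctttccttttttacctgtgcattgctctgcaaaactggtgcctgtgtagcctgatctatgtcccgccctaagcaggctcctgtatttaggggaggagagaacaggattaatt

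Fewer genes followed this axis than followed Rgs5: 21 of 1509 were at least 4-fold higher in 4 of 4 libraries in the Sult1c1-high cells, and 14 of 1673 were lower. Without the Rgs5-rich cells these counts were 22 of 1490 and 16 of 1679. The higher genes include Sult1c1 itself, which set the split, and the lower ones include Gstm1, the other gene of the axis. Acsm4, an acyl-CoA synthetase known as a marker of the dorsal epithelium, stood at 631 ± 40.6 CPM against 16 ± 5.92. Nqo1, a quinone reductase known as a dorsal marker in neurons, stood at 143 ± 24.9 against 19.6 ± 1.08. Papss2, which makes the sulfate donor of sulfotransferases, stood at 1371 ± 65.2 against 178 ± 14.9, and a second sulfotransferase, Sult6b1, at 792 ± 109 against 71.0 ± 15.7. Fmo6, a flavin monooxygenase relative, Svopl and Gstm5 were also higher. Without the Rgs5-rich cells Svopl stood at 968 ± 141 against 8.62 CPM and Gstm5 at 1010 ± 216 against 15, in place of 1131 ± 106 against 34.1 and 1133 ± 143 against 56.2. Crabp1, which binds retinoic acid, stood at 1248 ± 91.7 against 152 ± 10.2. In the opposite direction Gstm1 stood at 798 ± 108 against 14686 ± 635, and the P450s Cyp4b1 at 6.24 against 595 and Cyp2b10 at 4.06 against 235. Srd5a2, a steroid reductase, stood at 16.4 against 437, and Ephx1, the microsomal epoxide hydrolase, at 410 ± 42.0 against 2568 ± 251. Sec14l3 and Cbr2 differed by under 1.25 times, and Cyp2a5 was higher in the Sult1c1-high cells, at 49412 ± 1184 against 23291 ± 1615. The median depth of the Sult1c1-high cells was 16257 to 18357 UMIs, against 13444 to 14012 in cells without Sult1c1.

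The level of Cyp2g1 itself graded the members. Bands of 30 to under 60, 60 to under 120, 120 to under 240 and 240 or more Cyp2g1 UMIs held 774, 1186, 1686 and 2256 barcodes. From the first to the last band Cyp2a5 stood at 15083 ± 1179, 18185 ± 1269, 24438 ± 1928 and 39337 ± 1179 CPM. Gstm1 stood at 13610 ± 1014 in the first and 8202 ± 404 in the last, and Scgb1c1 at 12920 ± 2813 and 3193 ± 365. Sox9 stood at 84.9 ± 29.9 in the first and 22 ± 9.70 in the last, but the Rgs5-rich cells made up 12.3% of the first band and 2.08% of the last. Without them Sox9 stood at 12.2 ± 5.85 and 9.04 ± 3.53 CPM, a difference within the spread between libraries. Scgb1c1 then stood at 10240 ± 1989 and 2840 ± 328, Gstm1 at 15178 ± 1365 and 8366 ± 409, and Cyp2a5 at 15723 ± 1047 and 39821 ± 1034. Deeper barcodes fall into higher bands, so these gradients are descriptions and share their depth.

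**Figure D4:**
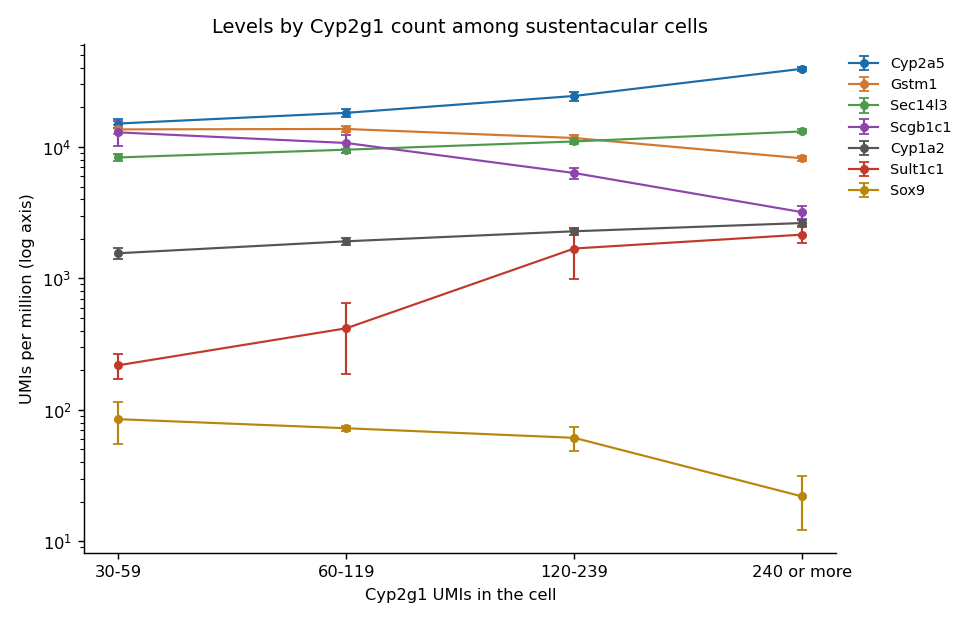
Level of 7 genes (CPM, log axis) in sustentacular cells by their Cyp2g1 UMI count. Points are means of 4 libraries and bars are SD. Cyp2a5, Sec14l3, Cyp1a2 and Sult1c1 are higher in the last band than in the first, and Gstm1, Scgb1c1 and Sox9 are lower; the Sox9 difference is within the spread between libraries without the Rgs5-rich cells.

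With 2 libraries per sex the design allows a comparison of male and female sustentacular cells, which the rule did not use. Sustentacular barcodes were 14.3% (female 1, 95% Wilson interval 13.6% to 15%), 14.3% (female 2, 13.6% to 15%), 15.3% (male 1, 14.6% to 16.1%) and 15.5% (male 2, 14.8% to 16.3%) of the passing barcodes. Both male shares were above both female shares, by 1.14 percentage points on average, and the two-sided exact permutation p of 0.333 is the smallest that 2 libraries against 2 can give. A higher share of captured cells and more RNA per cell passing the Cyp2g1 limit cannot be told apart. The Sprr1a limit alone took out 117 and 84 barcodes from female libraries but 76 and 42 from male ones, and without it the difference was 0.74 percentage points. Without the Rgs5-rich cells it was 1.43.

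The UMIs of each library's sustentacular cells were summed and tested with edgeR's quasi-likelihood test. Of 13610 genes, 10 (0.0735%) had an adjusted p under 0.05, 5 with more in males (0.0367%) and 5 with less (0.0367%). At an unadjusted p below 0.05 there were 866. DESeq2 called 66 genes, 51 higher and 15 lower in males. The libraries without the Rgs5-rich cells gave 14 genes by edgeR, 8 higher and 6 lower.

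The Y-linked genes checked the labels. Eif2s3y (a translation factor subunit), Ddx3y (an RNA helicase), Uty and Kdm5d (histone demethylases of the Y chromosome) were absent from female sustentacular cells, with 0 UMIs of 43358926. Male 1 and male 2 held 1159 and 1370 UMIs of Eif2s3y, 805 and 799 of Ddx3y, 423 and 412 of Uty, and 320 and 285 of Kdm5d. Against a floor of 3 counts over both female libraries they were at least 815-fold, 517-fold, 269-fold and 195-fold higher in males. Of their 4 partner genes on the X chromosome, 3 were lower in males. Kdm6a (chrX:18162575-18279936), a histone demethylase known to escape X inactivation, stood at 71.9 and 71.9 CPM in females and 43 and 41 in males after TMM scaling. Its log2 difference was -0.78 (SE 0.05, edgeR adjusted p = 0.00256). Eif2s3x fell by 0.57 (SE 0.05, edgeR adjusted p = 0.0108) and Kdm5c by 0.60 (SE 0.05, edgeR adjusted p = 0.0162). Ddx3x missed the threshold at -0.36 (edgeR adjusted p = 0.115).

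The other 3 called genes lie on autosomes. Ddr1 (chr17:35681567-35704621), a collagen receptor kinase, stood at 136 and 145 CPM in females and 92.6 and 96.1 in males, without overlap. It was lower in males by a log2 difference of -0.57 (SE 0.05, edgeR adjusted p = 0.0250), and the call ended when female 2 was left out (adjusted p = 0.0714). In the other barcodes its difference was -0.62 (adjusted p = 0.119). Hspa1b (chr17:34956436-34959238), an inducible heat-shock chaperone, stood at 305 and 319 CPM in females and 490 and 445 in males, a log2 difference of 0.58 (SE 0.06, edgeR adjusted p = 0.0413). It lost the call in 6 alternatives, among them leaving out either female library. Its near-identical copy Hspa1a stood at 0.35 (adjusted p = 0.0893), and reads may be shared between them. Olfr1262 (chr2:90000145-90008291), an odorant receptor of sensory neurons, was counted 132 and 133 times across female libraries against 14 and 8 across male ones, a log2 difference of -3.58 (SE 0.29, edgeR adjusted p = 0.0108). A single barcode held 127 of the UMIs of female 1, and another held 124 of those of female 2; no fit without these 2 cells was made.

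**Figure D5:**
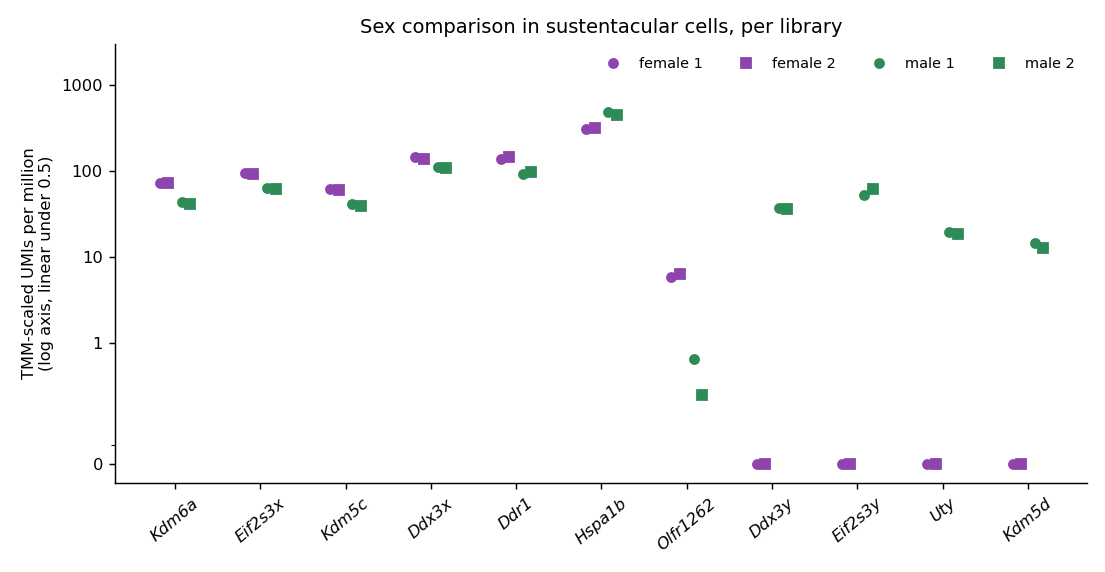
TMM-scaled CPM of the 10 genes called between the sexes and of Ddx3x in the summed sustentacular cells of each library (log axis, linear under 0.5). Circles and squares are replicates 1 and 2, violet for females and green for males. The 2 libraries of a sex stand together for every gene shown, and the 4 Y-linked genes are at 0 in females.

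The pathway genes of the class showed no sex call. None of the 10 sustentacular markers tested, of 49 phase I genes or of 37 phase II genes passed, with median log2 differences (male over female) of 0.09, 0.01 and 0.07 against -0.00122 over all genes tested. At an unadjusted edgeR p under 0.05 there were 3, 6 and 3 of them, against 866 of all 13610 genes. The log2 differences of the 10 markers ran from 0.007 to 0.19. Cyp2a5 stood at 28590 and 26473 CPM in females and 30432 and 31368 in males, a log2 difference of 0.17 (SE 0.04, edgeR adjusted p = 0.384). The groups did not overlap, but the gene did not pass. Msln stood at 361 and 376 CPM in females and 279 and 270 in males (-0.43, SE 0.05, edgeR adjusted p = 0.0701). Without the Rgs5-rich cells its log2 difference was -0.78 (SE 0.16, edgeR adjusted p = 0.299), and that of Rgs5 went from -0.36 (adjusted p = 0.108) to 0.26 (adjusted p = 0.821). Little Msln is left without them: thinned cells with at most 4 Rgs5 UMIs held it at 5.54 ± 1.48 CPM. The -0.78 is thus a contrast at a low level. Cxcl1, a chemokine in the stress list, was at -0.69 (SE 0.18, adjusted p = 0.480). In the all-gene test of whether the sex difference in sustentacular cells departs from that in the other barcodes, 1 of 16322 genes passed (0.00613%), Olfr1262, while 1249 were below an unadjusted p of 0.05. For Ddr1 that departure was 0.06 (adjusted p = 0.814) and for Hspa1b 0.37 (adjusted p = 0.311).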

How the data were processed

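The members and gene lists were chosen with earlier results of these data known. The authors deposited raw UMI counts per gene and barcode; per the file headers they were made with Cell Ranger 6.0.2, while the submitters' processing notes name Cell Ranger 5.0.1 and mm10, and these sources differ. Gene identifiers and barcodes were also read as deposited by the authors. The 4 libraries held 41911 barcodes and 418431848 UMIs (100725429 to 111577458 per library), and 2196 barcodes failed the limits on genes and mitochondrial UMIs. No doublets were removed for the main values. A doublet score (2 simulated doublets per barcode, 50 neighbours, 30 components) marked the highest 0.8% per 1000 barcodes for one alternative.

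Counts were summed per library and class and expressed per 1000000 UMIs of the class. A level in CPM is per molecule captured at its 5′ end and is not divided by gene length. Ratios used a prior of 0.1 CPM, and a gene passed at 4-fold in 4 of 4 libraries. Summed counts were tested with edgeR 4.0.16 (TMM, filterByExpr, quasi-likelihood, Benjamini-Hochberg at 0.05) in R 4.3.3, with DESeq2 1.42.0 as an alternative. A gene's departure between classes was tested as the interaction of sex and class with the library as a block. On simulated data of 13610 genes, edgeR recovered 78 of 100 genes changed 2-fold between the sexes and 97 of 100 changed 4-fold. Of its 197 calls there, 11.2% were false. For the interaction, simulated on 16322 genes, it recovered 58 and 85 of 100, and 14.9% of its 168 calls were false. Named genes were, outside the 4 genes of the rule, the 15 with the largest lowest-of-4 ratio at 50 CPM or more, the 10 most abundant outside mitochondrial and ribosomal genes, the 12 most variable, all sex and interaction calls (up to 10 of the latter) and the 4 most abundant of each list; others in the text were chosen after their values were seen. Of 22399 gene identifiers, 22285 (99.5%) are in GENCODE M21 on GRCm38, which gave the positions. Cyp2g1 and Msln have no promoter shown. P-values measure only the spread between libraries, and intervals and floors cover counting error only. Alternatives were other tools, filters, scalings, limits and comparison classes and leaving out each library.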

Additional observations from a re-analysis of the deposited data

Results flagged for a closer look

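The test of whether the sex difference in sustentacular cells departs from that in the other barcodes singled out Olfr1262, with a log2 departure (male over female) of -3.52 (SE 0.23, edgeR adjusted p = 0.0340). Among sustentacular cells its level was 5.88 and 6.36 CPM for female libraries against 0.63 and 0.35 for male ones. In the other barcodes the level was 11.2 and 14.6 CPM for female libraries against 15.8 and 8.11 for male ones. Of the 287 UMIs in sustentacular cells, 127 lay in 1 barcode of female 1 and 124 in 1 barcode of female 2. Over the alternatives its adjusted p ran from 1.69e-14 by DESeq2 to 0.221, the latter when barcodes with 30 or more Cyp2g1 UMIs were taken out of the comparison. Without male 1 the adjusted p was 0.0733. No other result was singled out, since groups of 2 libraries are too small for a test of outlying samples.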

How the results depend on the processing

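The edgeR count of 10 sex genes was 34 with cells thinned to 5000 UMIs, 44 without high doublet scores and 66 by DESeq2, and 25 to 58 when 1 library was left out (34 without female 1, 25 without female 2, 58 without male 1, 48 without male 2). It was 9 to 15 under the other alternatives, including 15 with no limit on Sprr1a and 14 without Rgs5-rich cells, both chosen after seeing the data. The 4 Y-linked genes, Kdm6a, Eif2s3x and Kdm5c kept their call in all 11 alternatives and all 4 leave-one-out fits. Olfr1262 lost it with Omp at most 5 UMIs and after thinning. The count of 1 gene for the departure between classes was 133 by DESeq2 and 0 when barcodes with 30 or more Cyp2g1 UMIs were left out (edgeR, 1410 at an unadjusted p under 0.05), and 0 to 73 when 1 library was left out (0 without male 1, where 945 had an unadjusted p under 0.05). With the replicate number as a block it was 67, while the sex count stayed at 10. Deviations from the mean of each sex had r = 0.33 between female 1 and male 1. With 2 libraries per sex, female 2 and male 2 must give the same r, and female 1 and male 2 its negative (-0.33). This is a single value, so the numbers are not shown to pair libraries.

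The count of 356 genes at 4-fold or more was 1895 against Omp-high barcodes, 572 without high doublet scores, 643 with cells thinned to 2000 UMIs and 784 against barcodes with fewer than 30 Cyp2g1 UMIs. It fell to 264 with at least 60 Cyp2g1 UMIs required of members, and to 251 with a prior of 1 CPM. That prior also took the count of lower genes from 1992 to 1185. Without Rgs5-rich cells the count of higher genes was 359, but the log2 ratios of Msln and Rgs5 reversed to -2.67 and -1.47. The share difference kept its direction under all alternatives, at 0.74 to 1.45 percentage points, and was 1.03 and 1.25 within replicates 1 and 2. Genes with few UMIs, such as receptors, are limited by depth and by single cells.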

Other observations

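The sum of 20 interferon and antigen presentation genes was 1190 CPM (female 1), 1830 (female 2), 935 (male 1) and 1773 (male 2), so each sex held 1 lower and 1 higher library. Cd74, the invariant chain of class II molecules, stood at 84, 260, 37.7 and 258 CPM in that order. H2-K1, a class I heavy chain, stood at 294, 437, 246 and 410 CPM likewise. For the sum and for both genes, female 1 and male 1 stood below female 2 and male 2. The split thus followed the replicate number. The labels do not say what libraries of the same number share, and a batch was not tested. None of the 20 genes passed the sex comparison by edgeR, and 0 had an unadjusted p under 0.05. The list's sum in the other barcodes ran from 1064 to 2175 CPM.

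Bpifa1, a secreted protein of respiratory epithelium, was the most variable gene and rested on few cells. In female 1, female 2, male 1 and male 2, 14, 6, 5 and 9 sustentacular barcodes with at least 100 UMIs held 93.7%, 75.5%, 85.8% and 89.6% of its UMIs.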
